A study of Homo sapiens with 6 samples.

Results

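The genes described here encode the nuclear pore complex and the proteins that carry cargo through it. They were chosen by symbol: NUP, KPNA, KPNB, IPO, XPO and TNPO followed by a number (or XPOT), together with POM121, NDC1, TPR, RANBP2, SEH1L, SEC13, AAAS and RAN. Of 35974 genes in the table, 54 matched: 30 pore subunits, 23 transport receptors and the GTPase RAN. RNA was sequenced in 6 libraries of SU-DHL-8, an established line of diffuse large B-cell lymphoma whose label gives DNMT1 as wild type in both groups. Cells of 3 libraries were given the solvent DMSO, and those of the other 3 GSK3685032, which inhibits the maintenance DNA methyltransferase DNMT1. No dose or duration of treatment was found in the labels. None says either that the libraries of a group were separate cultures, and p-values therefore cover the spread between libraries alone. The treatment labels of inhibitor replicates 2 and 3 end in other digits (GSK3685033, GSK3685034), while the series names GSK3685032 alone.

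The nuclear pore is a ring-shaped channel through the nuclear envelope. Y-shaped complexes form its outer rings, an inner ring lines the membrane, subunits rich in phenylalanine-glycine repeats fill the central channel, and filaments and a basket reach into the cytoplasm and the nucleus. Importins take cargo in and release it when RAN-GTP binds them, and exportins carry cargo out together with RAN-GTP. In dividing cells the pores are taken apart at mitosis and built again afterwards, and new ones are added in interphase.

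Total counts ran from 53846028 to 75304441 per library, and counts of 4 were more frequent than counts of 3 or 5. The B-cell markers MS4A1, CD79A, CD79B, PAX5 and CD22 were all present, with a summed level of 824 to 842 FPKM with DMSO and 704 to 756 FPKM with the inhibitor. They did not move together: MS4A1, PAX5 and CD79B fell (log2 change -1.95, -0.85 and -0.53, edgeR adjusted p under the threshold of 0.05), and CD79A and CD22 rose (0.60 and 0.61). FPKM, fragments per kilobase of transcript scaled to library size, is the scale of every level given here. The T-cell markers in the table (2 of 3) were at 0 in every DMSO library and summed to 0.0793 to 0.342 FPKM with the inhibitor. Myeloid markers (3 of 3) summed to 0.568 to 0.798 and 0.737 to 1.01 FPKM, and epithelial and stromal ones (2 of 3) to 0.0937 to 0.128 and 0.449 to 0.562 FPKM. The part of these low signals in the results was not tested.

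Genes that share a response are often compared through their promoters, so a stretch upstream of the RefSeq start (GRCh38.p14, from 250 bases before to 50 after it) was searched on both strands for 4 short motifs. Of the 54 genes, 49 had an entry. For 13 genes several windows were listed, and only the first listed for each gene was searched. A gene without a match may therefore hold the motif at another start. GCATGCGC, the core of the site of nuclear respiratory factor 1 (NRF1), was found in 4 of 49 (8.16%), against 3.27% of 27305 promoters and 5.40% of 12589 promoters of genes tested. The core was in 4 of 39 promoters of genes called lower with the inhibitor and in 0 of the other 10. Most promoters searched belong to genes called lower, so the 4 stretches do not link the core to the fall. The RefSeq start is not always the start of the gene as deposited, and the stretches of IPO11 and NUP62 lie inside the deposited genes. Capitals mark the core, and where they read GCGCATGCGC they hold it on both strands, overlapping.

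IPO11 (chr5:62412690-62412757, plus strand, bases 73 to 6 before the start): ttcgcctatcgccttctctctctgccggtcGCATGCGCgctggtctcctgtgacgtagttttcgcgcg
NUP107 (chr12:68686864-68686933, plus strand, bases 114 to 45 before the start): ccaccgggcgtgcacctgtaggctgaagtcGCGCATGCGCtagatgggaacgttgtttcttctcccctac
NUP62 (chr19:49929524-49929593, minus strand, bases 89 to 20 before the start): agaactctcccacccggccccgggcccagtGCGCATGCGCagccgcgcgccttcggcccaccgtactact
NUP50 (chr22:45163839-45163908, plus strand, bases 86 to 17 before the start): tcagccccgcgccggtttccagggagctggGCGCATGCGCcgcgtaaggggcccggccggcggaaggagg

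CACGTG, the E-box bound by MYC and related factors and its own reverse complement, was found in 7 of 49 promoters (14.3%), against 7.43% of all promoters and 9.91% of those of genes tested. It was in 4 of 39 promoters of genes called lower with the inhibitor (NUP188, IPO7, KPNA3 and NUP50) and in 3 of the other 10. Those 3 are shown, with the E-box in capitals. They were picked by their call, so the stretches shown do not link the E-box to it. The stretch of TNPO2 lies inside the gene as deposited, and that of IPO4 reaches into it.

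RAN (chr12:130871934-130871999, plus strand, bases 132 to 67 before the start): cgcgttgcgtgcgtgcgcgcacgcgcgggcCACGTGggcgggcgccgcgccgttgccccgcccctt
TNPO2 (chr19:12723933-12723986, minus strand, bases 54 to 1 before the start): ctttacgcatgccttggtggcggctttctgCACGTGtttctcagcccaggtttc
IPO4 (chr14:24188817-24188875, minus strand, bases 59 to 1 before the start): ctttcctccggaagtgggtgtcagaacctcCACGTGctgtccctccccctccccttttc

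The E2F words TTTCCCGC and TTTGGCGC were found in 1 of 49 promoters, that of NUP155 (2.04%, against 2.31% of all promoters and 3.48% of those of genes tested). ATTGG, the reverse complement of CCAAT (the CCAAT box), was in 22 of 49 (44.9%, against 35.7% and 37.0%). A match is a run of letters and was not tested as a site, and with 1 to 22 matches these shares are descriptions.

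Transcripts of the pore fell with the inhibitor in most genes of each substructure except the membrane group, those of the receptors fell by a smaller median, and RAN rose slightly. A gene was called when edgeR's quasi-likelihood test gave a Benjamini-Hochberg adjusted p under 0.05 over 20783 tested genes, and fold changes are inhibitor over DMSO on the log2 scale. Of 53 genes tested here, 43 were called lower, 5 higher and 5 neither. Among all genes tested, 27.3% were called lower and 38.1% higher. Pore subunits were called lower in 26 of 29 cases and higher in 1, with a median log2 change of -0.55, and receptors were called lower in 17 of 23 and higher in 3, with a median of -0.29. The median over all tested genes was 0.14. With upper-quartile factors, which moved that median by 0.17, the pore and receptor medians were -0.38 and -0.12, and 14 receptors were called lower and 5 higher; in the fit of genes at an FPKM of at least 1 they were -0.52 and -0.19. At least 2-fold lower were 6 pore subunits and 1 receptor, against 8.10% of all genes tested. The genes here are mostly well expressed, and 52 of 54 reached an FPKM of 1 in at least 3 libraries. By the calls above, 5005 of 12332 tested genes at that level were lower and 4090 higher, with a median log2 change of -0.07. In a fit restricted to genes at that level, 35.6% of all genes were called lower and 38.9% higher, against 24 and 2 of 28 pore subunits and 17 and 5 of 23 receptors. In bulk RNA, fewer cells of a kind and less RNA per cell cannot be told apart.

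**Figure D1:**
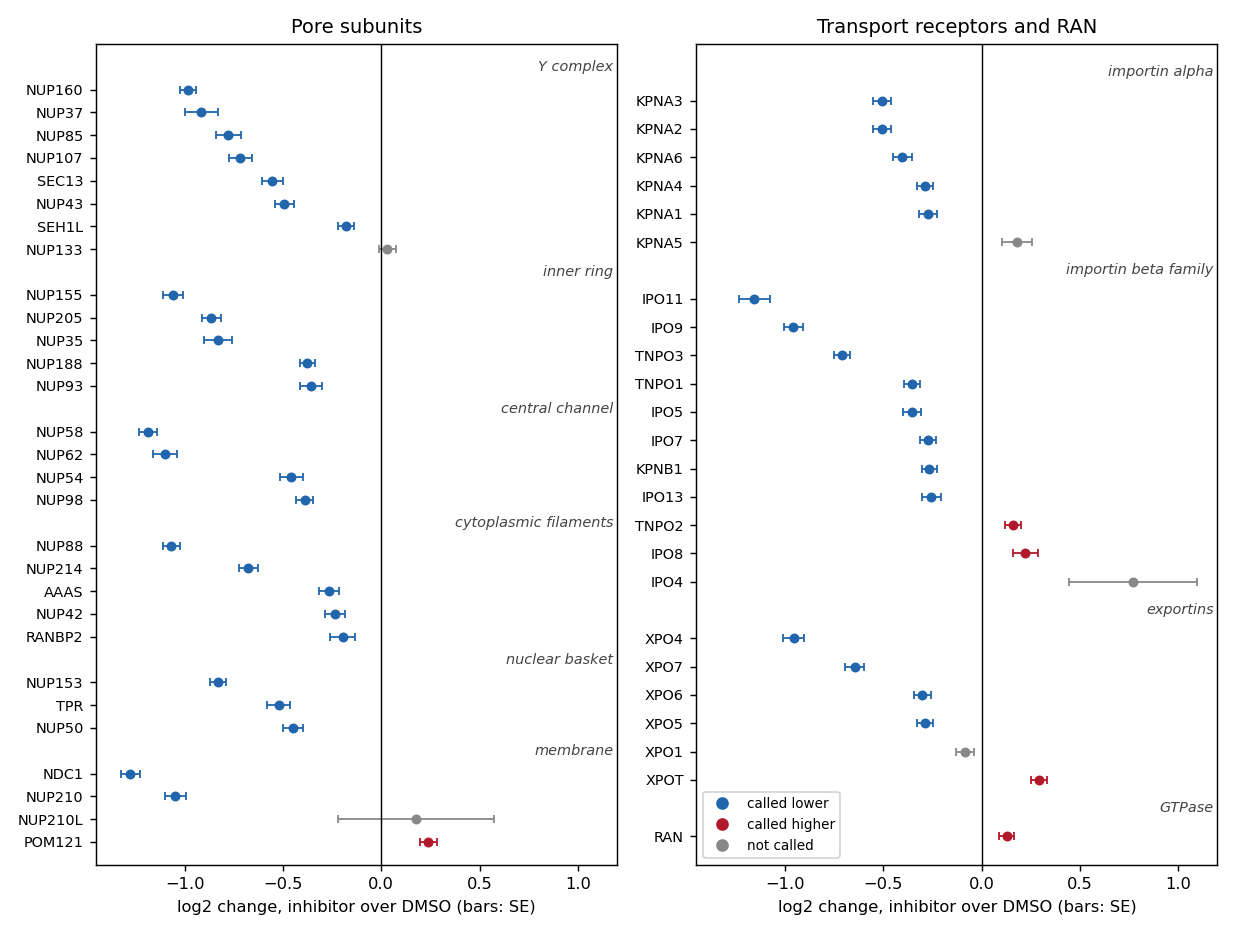
Log2 change with the inhibitor over DMSO (horizontal axis; bars are standard errors of edgeR's fit, 3 libraries per group) for 29 pore subunits, 23 receptors and RAN, ordered by substructure or family. Blue points are called lower, red higher and grey neither; the pore subunits range from -1.28 (NDC1) to 0.24 (POM121).

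Summed over the 30 pore subunits, the level was 555, 571 and 557 FPKM with DMSO and 360.2, 356 and 376 FPKM with the inhibitor. The means were 561 ± 8.75 and 364 ± 10.4 FPKM (SD, n = 3 each), so the inhibitor group stood at 64.9% of the control. The 23 receptors summed to 501, 516 and 503 FPKM with DMSO and to 419, 422 and 417 FPKM with the inhibitor, or 82.7% of the control (507 ± 8.02 and 419 ± 2.63 FPKM, SD, n = 3 each). In neither class did the groups overlap. Receptor over pore level, a ratio within each library, was 0.903, 0.904 and 0.904 in the DMSO libraries and 1.16, 1.19 and 1.11 in those with inhibitor. Receptor transcripts thus outweighed pore transcripts in every inhibitor library and in no DMSO library. The genes were chosen with earlier results known, so no test was made over either class.

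**Figure D2:**
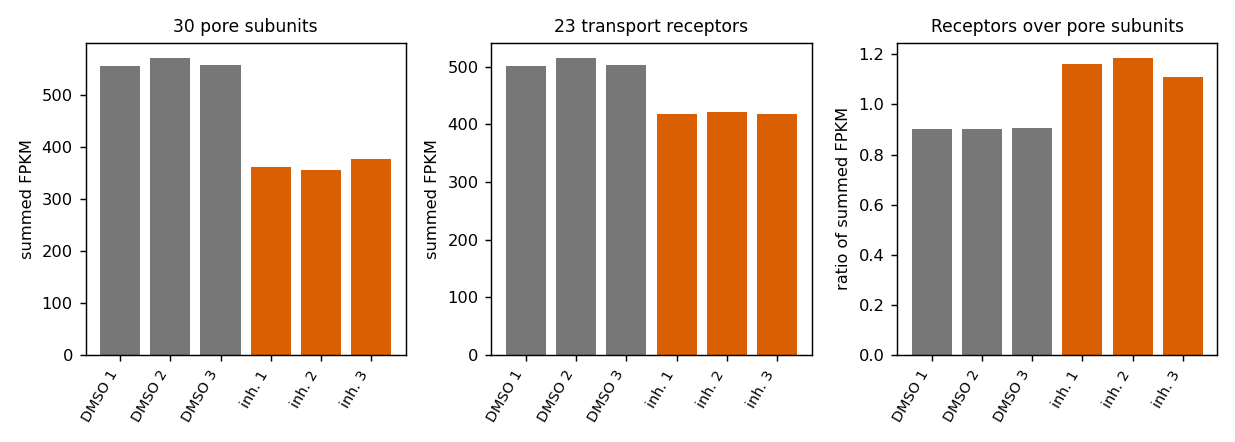
Summed FPKM of the 30 pore subunits and the 23 receptors in each of the 6 libraries, and the ratio of receptors to pore subunits (inh., inhibitor). All axes start at 0; the ratio is near 0.90 in the grey DMSO bars and 1.11 to 1.19 in the orange inhibitor bars.

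The Y complex is the scaffold of the outer rings, and 7 of its 8 genes fell. Gene positions are given in GRCh38. NUP160 (ENSG00000030066, chromosome 11, 47778087 to 47848555, minus strand), a long arm of the Y, stood at 28.3, 29.5 and 28.6 FPKM with DMSO and 14.5, 14.3 and 15.1 FPKM with the inhibitor. The inhibitor libraries all lay near 50.6% of the control, with no overlap (log2 change of -0.98 with an SE of 0.041; adjusted p = 6.50e-08 in edgeR). NUP37 (ENSG00000075188, chromosome 12, 102073103 to 102120120, minus strand), a small propeller that binds NUP160, was at 11.9, 10.7 and 11.8 FPKM and then 6.27, 5.44 and 6.56 FPKM, again without overlap (log2 change of -0.92 with an SE of 0.084; adjusted p = 8.58e-06 in edgeR). NUP85, NUP107, SEC13, which also serves in vesicle coats, and NUP43 fell by 0.78, 0.72, 0.55 and 0.49 on the log2 scale. Of these, NUP43 overlaps PCMT1 on the opposite strand, which fell from 86.8 ± 1.47 to 48.8 ± 1.40 FPKM (SD, n = 3 each). SEH1L, which is shared with a regulator of nutrient signalling, fell by 0.18 on the log2 scale, a call that was lost with upper-quartile factors and in the fit of genes at an FPKM of at least 1. NUP133, the foot of the stalk, was not called: it stood at 12.4, 13.1 and 13.3 FPKM with DMSO and 12.9, 13.4 and 13.6 FPKM with the inhibitor, overlapping ranges (log2 change of 0.03 with an SE of 0.045; adjusted p = 0.562 in edgeR). Its level over that of NUP160 was 0.450 ± 0.0136 with DMSO and 0.910 ± 0.0221 with the inhibitor (SD, n = 3 each), or 202% of the control. This unplanned ratio sets the gene of the complex that moved least against the one that fell most.

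All 5 inner-ring genes fell. NUP155 (ENSG00000113569, chromosome 5, 37288137 to 37371106, minus strand), which anchors the ring at the membrane, was at 13.6, 14.6 and 14.2 FPKM with DMSO and 6.98, 6.47 and 6.94 FPKM with the inhibitor. Every inhibitor library lay below every DMSO library (log2 change of -1.06 with an SE of 0.052; adjusted p = 1.67e-07 in edgeR). NUP205 (ENSG00000155561, chromosome 7, 135557917 to 135648757, plus strand), a large solenoid of the ring, was at 33.0, 33.9 and 32.3 FPKM and 18.9, 17.4 and 18.4 FPKM, also without overlap (log2 change of -0.86 with an SE of 0.049; adjusted p = 3.78e-07 in edgeR). NUP35 followed at -0.83, while NUP188, the paralog of NUP205, and NUP93, which holds the channel subunits in place, moved least (-0.38 and -0.35, adjusted p of edgeR's test 2.59e-05 and 3.44e-04).

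In the central channel 4 of 4 tested genes fell, and the partners of 1 trimer fell unevenly. NUP58 (ENSG00000139496, chromosome 13, 25301524 to 25342421, plus strand), NUP62 and NUP54 form the trimer whose repeats make the permeability barrier. NUP58 measured 22.6, 23.4 and 22.4 FPKM with DMSO and 9.49, 9.91 and 10.8 FPKM with the inhibitor, no overlap (log2 change of -1.19 with an SE of 0.048; adjusted p = 5.41e-08 in edgeR). NUP62 (ENSG00000213024, chromosome 19, 49906825 to 49929764, minus strand) was at 20.9, 19.7 and 19.6 FPKM and 9.79, 8.65 and 9.77 FPKM, also apart (log2 change of -1.10 with an SE of 0.061; adjusted p = 3.24e-07 in edgeR). NUP62 overlaps ATF5 on the opposite strand, which rose from 239 ± 13.0 to 307 ± 18.5 FPKM (SD, n = 3 each), and IL4I1 on its own strand, at 0.759 to 2.33 FPKM in all libraries. NUP54 fell less (-0.46, SE 0.059), and its ratio to NUP58 went from 0.174 ± 0.0116 to 0.288 ± 0.0124 (SD, n = 3 each). That ratio was not planned and takes the smallest and the largest fall of the trimer. NUP98, a mobile repeat protein that also binds chromatin, fell by 0.39 on the log2 scale. NUP62CL, a relative of NUP62, was listed at 0 in all DMSO libraries and at 0.131, 0.0346 and 0.0314 FPKM with the inhibitor (at most 16 counts). These were too few to pass the count filter of edgeR's test.

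The cytoplasmic filaments hold the last steps of mRNA export, and all 5 genes were called lower. NUP88 (ENSG00000108559, chromosome 17, 5359668 to 5420164, minus strand) was at 13.4, 13.8 and 13.7 FPKM with DMSO and 6.66, 6.57 and 6.37 FPKM with the inhibitor. Its groups did not overlap (log2 change of -1.07 with an SE of 0.044; adjusted p = 6.28e-08 in edgeR); it overlaps RABEP1 and RPAIN on the other strand, which changed by -0.36 and -0.20 on the log2 scale. NUP214 (ENSG00000126883, chromosome 9, 131125573 to 131234663, plus strand), the partner of NUP88 and a docking site for XPO1, was at 5.57, 5.85 and 5.25 FPKM and 3.35, 3.56 and 3.56 FPKM, without overlap (log2 change of -0.68 with an SE of 0.050; adjusted p = 1.96e-06 in edgeR). AAAS and NUP42 fell by 0.26 and 0.24 on the log2 scale, and with upper-quartile factors neither call held. RANBP2, the large filament protein that holds SUMO-tagged RANGAP1, measured 6.67, 6.88 and 6.37 FPKM and 5.28, 5.73 and 6.46 FPKM, and inhibitor replicate 3 reached into the DMSO range (log2 change of -0.20 with an SE of 0.064; adjusted p = 0.0210 in edgeR). The call was lost in 11 of 18 alternative analyses, among them those without DMSO replicate 1 (adjusted p = 0.0521, edgeR), DMSO replicate 2 (0.0760), inhibitor replicate 1 (0.0728) and inhibitor replicate 2 (0.0660). RANBP2 has near-identical copies, the RGPD genes, of which RGPD1 and RGPD2 stood at 5.57 ± 0.890 and 7.31 ± 0.236 FPKM with DMSO and 5.25 ± 0.495 and 7.80 ± 0.926 FPKM with the inhibitor (SD, n = 3 each), so reads may be split among them.

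The 3 genes of the nuclear basket fell. NUP153 (ENSG00000124789, chromosome 6, 17615035 to 17706925, minus strand), which tethers the basket, was the most abundant pore transcript with DMSO, at 46.3, 48.7 and 47.7 FPKM, and stood at 26.5, 26.7 and 27.5 FPKM with the inhibitor. The groups did not overlap (log2 change of -0.83 with an SE of 0.040; adjusted p = 1.49e-07 in edgeR). TPR (ENSG00000047410, chromosome 1, 186311652 to 186375693, minus strand), the coiled coil of the basket filaments, was at 39.2, 38.5 and 39.3 FPKM and 24.9, 26.8 and 30.2 FPKM (log2 change of -0.52 with an SE of 0.058; adjusted p = 3.15e-05 in edgeR). Its inhibitor replicates spread more than those of DMSO but stayed below them. NUP50, which helps importins let go of cargo, fell by 0.45 on the log2 scale.

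The membrane subunits went in different directions. NDC1 (ENSG00000058804, chromosome 1, 53765478 to 53838463, minus strand), which spans the membrane and recruits other subunits, was at 29.2, 31.1 and 29.7 FPKM with DMSO and 12.2, 12.0 and 13.1 FPKM with the inhibitor, or 41.3% of the control, the lowest share among the 53 genes tested (log2 change of -1.28 with an SE of 0.049; adjusted p = 4.44e-08 in edgeR). NUP210 (ENSG00000132182, chromosome 3, 13316235 to 13420322, minus strand), with a large lumenal domain, was at 32.4, 34.9 and 32.7 FPKM and 16.9, 15.6 and 16.1 FPKM, and its groups were apart too (log2 change of -1.05 with an SE of 0.054; adjusted p = 2.22e-07 in edgeR). POM121, the third membrane subunit, rose: it stood at 21.4, 22.9 and 22.0 FPKM with DMSO and 26.1, 25.8 and 26.6 FPKM with the inhibitor (log2 change of 0.24 with an SE of 0.043; adjusted p = 7.37e-04 in edgeR). It has a near-identical copy, POM121C, at 23.2 ± 1.14 and 23.4 ± 0.427 FPKM (SD, n = 3 each; log2 change 0.0054, not called), so the division of reads between the copies is uncertain. POM121 also overlaps ENSG00000289042 on its own strand and NSUN5P2 on the other, and their part in its value was not tested. NUP210L, a testis relative of NUP210, was near 0 in all libraries (0.0550 to 0.0647 FPKM) and not called.

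Among importin alpha genes, the adaptors that read the classical nuclear localization signal, 5 of 6 fell. KPNA3 (ENSG00000102753, chromosome 13, 49699320 to 49792682, minus strand) was at 29.1, 30.9 and 29.5 FPKM with DMSO and 20.3, 22.1 and 20.9 FPKM with the inhibitor (log2 change of -0.51 with an SE of 0.046; adjusted p = 7.51e-06 in edgeR). KPNA2 (ENSG00000182481, chromosome 17, 68035636 to 68047364, plus strand), the adaptor linked to proliferating cells, was at 24.2, 22.8 and 22.4 FPKM and 16.7, 16.3 and 16.0 FPKM (log2 change of -0.51 with an SE of 0.047; adjusted p = 9.12e-06 in edgeR). In both genes all inhibitor libraries were below all DMSO libraries. KPNA6, KPNA4 and KPNA1 changed by -0.40, -0.29 and -0.27, and KPNA1 was not called with upper-quartile factors (-0.10, edgeR adjusted p = 0.0783). KPNA5, the least abundant, was at 3.04, 2.88 and 2.71 FPKM and 2.91, 3.37 and 3.56 FPKM and missed the threshold (log2 change of 0.18 with an SE of 0.076; adjusted p = 0.0614 in edgeR); it was called higher in 6 of 18 alternative analyses, among them DESeq2 and the fit without inhibitor replicate 1 (adjusted p = 0.0149).

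Of the 11 genes of the importin beta family, 8 fell, 2 rose and 1 was not called. IPO11 (ENSG00000086200, chromosome 5, 62403972 to 62628582, plus strand) was at 6.25, 6.45 and 6.23 FPKM with DMSO and 2.91, 3.07 and 2.54 FPKM with the inhibitor, the only receptor at least 2-fold lower (log2 change of -1.16 with an SE of 0.078; adjusted p = 1.13e-06 in edgeR). IPO9 (ENSG00000198700, chromosome 1, 201829149 to 201884291, plus strand), which carries histones, was at 11.4, 11.8 and 11.5 FPKM and 6.19, 5.90 and 5.85 FPKM (log2 change of -0.96 with an SE of 0.048; adjusted p = 1.87e-07 in edgeR). For both, the groups did not overlap; LRRC70, within IPO11 on the same strand, was at 0 to 1.35 FPKM. CKS1BP3, a pseudogene within IPO11 on the opposite strand, fell from 9.34, 10.8 and 11.9 FPKM to 3.87, 1.30 and 4.56 FPKM (log2 change of -1.72 with an SE of 0.405; adjusted p = 0.00409 in edgeR), and its part in the IPO11 value was not tested. TNPO3, the carrier of splicing factors, fell by 0.71 on the log2 scale, whereas KPNB1, importin beta itself and the partner of importin alpha, fell by 0.27, from 35.6, 36.4 and 37.0 FPKM to 29.9, 30.1 and 31.0 FPKM. TNPO1, IPO5, IPO7 and IPO13 changed by -0.35, -0.35, -0.27 and -0.26, and with upper-quartile factors IPO7 and IPO13 were not called (-0.099 and -0.084, edgeR adjusted p = 0.0529 and 0.147). TNPO2, a close relative of TNPO1, rose (log2 change of 0.16 with an SE of 0.041; adjusted p = 0.00655 in edgeR), and so did IPO8, a relative of IPO7 (log2 change of 0.22 with an SE of 0.063; adjusted p = 0.0114 in edgeR), a call that was lost without inhibitor replicate 3 (0.18, adjusted p = 0.0506).

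IPO4 (ENSG00000196497, chromosome 14, 24180219 to 24188869, minus strand), a carrier of histones and ribosomal proteins, scattered within both groups, at 5.74, 5.74 and 9.45 FPKM with DMSO and 16.4, 13.2 and 6.06 FPKM with the inhibitor. The groups overlapped and it missed the threshold (log2 change of 0.77 with an SE of 0.326; adjusted p = 0.0627 in edgeR), but it was called higher without DMSO replicate 3 (adjusted p = 0.0257, edgeR) or without inhibitor replicate 3 (0.00311). Another gene on the same strand covers most of it, ENSG00000259522 (24180395 to 24190416 on chromosome 14), at 7.72, 7.52 and 4.41 FPKM and 2.96, 6.54 and 13.8 FPKM. Within each group, the library with the highest IPO4 level had the lowest level of the overlapping gene. Their counts summed to 66.6, 65.0 and 70.7 CPM (counts scaled to library totals) with DMSO and 102, 101 and 97.7 CPM with the inhibitor, values that no longer overlapped. In a fit with the summed count, an alternative chosen after seeing the data, the log2 change was 0.55 (edgeR adjusted p = 7.39e-06). How reads were divided between these genes was not tested. ENSG00000259522 also reaches into TM9SF1 on the same strand (log2 change 0.08, not called), and REC8 overlaps IPO4 on the other strand. The part of TM9SF1 and REC8 in these values was not tested.

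**Figure D3:**
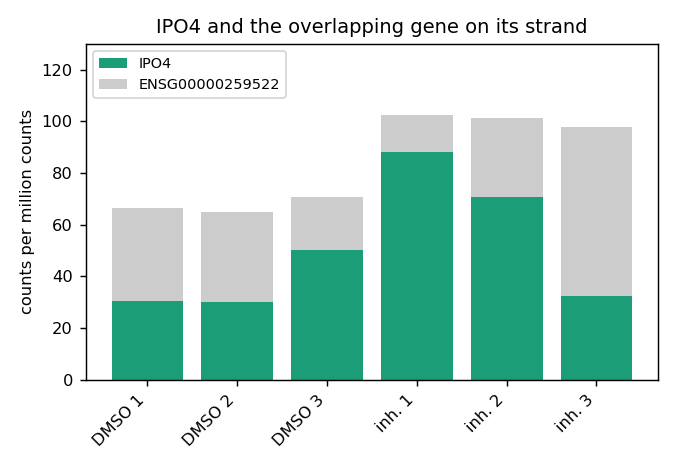
Counts scaled to library totals (CPM) for IPO4 (green) and the overlapping gene (grey), stacked, in each of 6 libraries. The green part ranges from 30.1 to 88.3 CPM, while the height of the stack is 65.0 to 70.7 with DMSO and 97.7 to 102 with the inhibitor (inh.).

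Of 6 exportins, 4 fell, 1 rose and 1 was not called. XPO4 (ENSG00000132953, chromosome 13, 20777329 to 20903048, minus strand), which exports a translation factor and also imports some cargo, was at 23.4, 25.1 and 22.3 FPKM with DMSO and 11.7, 12.2 and 12.8 FPKM with the inhibitor (log2 change of -0.95 with an SE of 0.053; adjusted p = 3.24e-07 in edgeR). XPO7 (ENSG00000130227, chromosome 8, 21919662 to 22006585, plus strand) was at 22.2, 22.3 and 21.3 FPKM and 14.6, 13.6 and 14.0 FPKM (log2 change of -0.65 with an SE of 0.048; adjusted p = 2.24e-06 in edgeR). Both genes were lower in each inhibitor library than in any control. XPO6, the exporter of actin, and XPO5, which carries microRNA precursors, fell by 0.30 and 0.29 on the log2 scale. XPO5 overlaps POLR1C on the opposite strand, which fell by 0.24. ENSG00000219470 lies over XPO5 on the same strand and ENSG00000252218 on the other, and their part in its value was not tested. XPO1, the exporter of proteins with leucine-rich signals, was not called, at 16.5, 17.0 and 15.8 FPKM and 14.8, 15.5 and 16.3 FPKM (log2 change of -0.09 with an SE of 0.045; adjusted p = 0.123 in edgeR). Its sign turned with upper-quartile factors (0.087) and in the fit of genes at an FPKM of at least 1 (0.012). Its ratio to NUP214, its docking site, was 2.96 ± 0.0487 with DMSO and 4.45 ± 0.120 with the inhibitor (SD, n = 3 each), a comparison that was not planned. XPOT, which exports transfer RNA, rose from 42.1, 44.3 and 42.7 FPKM to 51.8, 53.0 and 54.2 FPKM, without overlap. Its log2 change was 0.29 with an SE of 0.039 (edgeR adjusted p = 1.04e-04). ENSG00000255566 lies over XPOT on the opposite strand, and its part in the XPOT value was not tested.

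RAN (ENSG00000132341, chromosome 12, 130872037 to 130877676, plus strand), whose GTP state sets the direction of transport, was the most abundant of these transcripts in both groups. It stood at 89.4, 92.2 and 93.3 FPKM with DMSO and 101, 102 and 98.8 FPKM with the inhibitor. The inhibitor libraries were all above the controls by a small margin (log2 change of 0.13 with an SE of 0.040; adjusted p = 0.0178 in edgeR). The call was lost without DMSO replicate 1 (log2 change 0.10, edgeR adjusted p = 0.101) and without inhibitor replicate 1 (0.11, adjusted p = 0.0514). In the order of levels with DMSO, RAN was followed by XPO5 (47.7 ± 1.21 FPKM) and NUP153 (47.6 ± 1.22 FPKM, SD, n = 3 each), which do not differ beyond their spread, and then by IPO5 and XPOT (44.0 ± 1.80 and 43.1 ± 1.12 FPKM), which also lie within theirs. With the inhibitor XPOT was second, and NUP153 stood at rank 9 and NDC1 at rank 26, from 13 with DMSO.

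Other genes of nuclear transport, 47 tested of 48 in the table, were also mostly lower. In edgeR's test over 20783 genes, 34 were called lower and 9 higher, with a median log2 change of -0.49. Over all genes tested, 27.3% were lower and 38.1% higher, with a median of 0.14. By the same calls, 5005 of 12332 tested genes that reached an FPKM of 1 in at least 3 libraries fell and 4090 rose. In the separate fit restricted to that level, 28 of 45 genes in this list were lower and 8 higher. The shares of all genes in that fit were 35.6% and 38.9%. Each list that follows gives calls of the test over 20783 genes, so only the shares of that test apply to it. Among other pore genes 3 of 4 fell (median -0.74). RAE1, the partner of NUP98, went from 60.8, 65.9 and 63.0 FPKM to 31.4, 28.3 and 29.2 FPKM (log2 change of -1.10 with an SE of 0.058; adjusted p = 2.53e-07 in edgeR). AHCTF1, which starts pore assembly on chromatin, and GLE1, which activates the export helicase at the filaments, changed by -0.86 and -0.61.

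The regulators of the RAN cycle fell while RAN did not, and of 10 genes of the cycle and other factors 7 fell and 2 rose (median -0.63). RCC1, the exchange factor that loads RAN with GTP on chromatin, was at 39.9, 37.1 and 37.1 FPKM with DMSO and 17.9, 15.1 and 16.8 FPKM with the inhibitor (log2 change of -1.20 with an SE of 0.068; adjusted p = 3.91e-07 in edgeR). RANBP1, which helps to release RAN from receptors, was at 43.0, 45.5 and 42.1 FPKM and 20.1, 21.2 and 20.2 FPKM (log2 change of -1.09 with an SE of 0.047; adjusted p = 7.77e-08 in edgeR). RANGAP1, which triggers GTP hydrolysis and was singled out after its values were seen, changed by -0.91 (SE 0.049). The groups were apart in all 3 regulators, but the share of all genes with groups apart was not computed. NXT2, a cofactor of the mRNA export receptor counted here with the other factors, rose from 4.40, 4.15 and 3.90 FPKM to 11.1, 12.2 and 12.0 FPKM (log2 change of 1.49 with an SE of 0.073; adjusted p = 1.63e-07 in edgeR). The other gene called higher, RANBP17, was near 0 in all libraries. It was listed at 0 FPKM with DMSO and at 0.0378, 0.0667 and 0.0227 FPKM with the inhibitor (at most 47 counts).

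In mRNA export, 14 of 18 genes fell and 3 rose (median -0.43). NXT1, the main cofactor of the export receptor NXF1, was at 45.4, 42.9 and 49.3 FPKM with DMSO and 25.1, 21.5 and 21.4 FPKM with the inhibitor (log2 change of -1.02 with an SE of 0.087; adjusted p = 5.43e-06 in edgeR), opposite to its relative NXT2. NXF1, singled out after its values were seen, rose from 19.2 ± 0.646 to 35.8 ± 2.16 FPKM (SD, n = 3 each; log2 change 0.89). THOC5, a subunit of the THO complex, rose from 4.04 ± 0.0794 to 10.1 ± 0.335 FPKM (log2 change 1.31, edgeR adjusted p = 3.05e-08), while its partners THOC1, THOC2, THOC3 and THOC7 fell by 0.53, 0.22, 0.42 and 0.55 on the log2 scale and THOC6 was not called (log2 change 0.05, edgeR adjusted p = 0.539). SARNP, another export factor, changed by -1.07 (SE 0.115, edgeR adjusted p = 2.46e-05).

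The lamina and the envelope hold the pores in place, and 10 of their 15 genes fell and 4 rose (median -0.27). LMNB1, a B-type lamin, was at 116, 107 and 112 FPKM with DMSO and 34.1, 27.4 and 34.1 FPKM with the inhibitor (log2 change of -1.81 with an SE of 0.085; adjusted p = 1.32e-07 in edgeR). LMNA, the A-type lamin, rose from a low level of 0.903, 0.778 and 1.01 FPKM to 4.13, 4.32 and 4.08 FPKM (log2 change of 2.2 with an SE of 0.10; adjusted p = 1.09e-07 in edgeR). The order of the lamins stayed B above A in every library. SYNE2, a protein that links the envelope to the cytoskeleton, changed by -1.77 (SE 0.066, edgeR adjusted p = 3.70e-08). LMNB2, singled out after its values were seen, changed by -1.05 (SE 0.048).

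**Figure D4:**
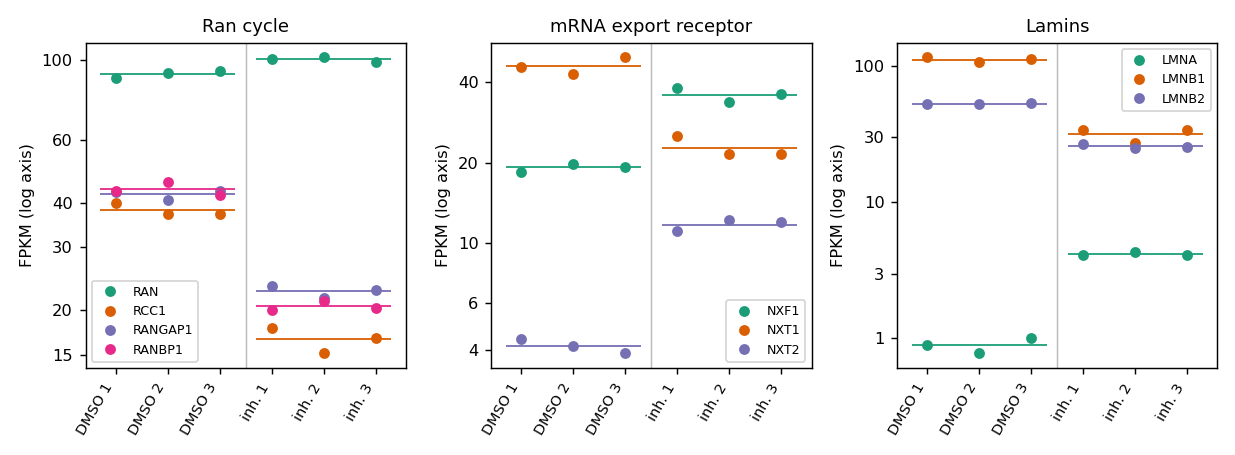
FPKM on log axes in each of 6 libraries for RAN and 3 regulators of its cycle, for the mRNA export receptor NXF1 and its cofactors, and for the lamins; points are libraries and lines are group means. RAN lies near 100 in the inhibitor libraries (inh.) while its regulators lie between 15.1 and 23.4, and LMNA and LMNB1 move in opposite directions.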

How the data were processed

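RNA was measured in 6 libraries of SU-DHL-8, 3 with DMSO and 3 with the inhibitor, grouped by their titles. The libraries held poly(A) RNA and were made strand-specific by dUTP marking, per the labels' protocols. The submitters' processing notes name HISAT2 2.2.1, cutadapt 1.9, edgeR, DESeq2 and StringTie 2.1.6 without their roles. Those notes name a mouse build, but the deposited gene IDs are human: all 54 genes matched GENCODE release 29 and overlapped their GRCh38 position (28 with the same start), so coordinates are the deposited ones read as GRCh38. The authors deposited a whole-number count and an FPKM value per gene and library, as the file headers name them. Counts of 4 were more frequent (1320 genes per library, on average) than counts of 3 (725.8) or 5 (474.5), as coverage-derived counts would give. No source used here says whether counting used strand, so reads of overlapping, antisense or near-identical genes cannot be told apart. Not every overlap is named above. Among others, NUP160 and NUP107 overlap a Y RNA gene and KRT8P39 on their own strand, and NUP153 overlaps NUP153-AS1 on the other.

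Counts were tested across all genes with edgeR 4.0.16 (R 4.3.3). Settings were filterByExpr, TMM factors, a two-sided quasi-likelihood test and Benjamini-Hochberg adjustment over 20783 genes. The test was also run on simulated counts, with no outcome quoted here. Few genes changed in that simulation, so it cannot show how the test and its factors behave when most genes are called. SE is the log2 change divided by the square root of F. Alternatives used DESeq2 1.42.0, limma 3.58.1 on log2(FPKM + 0.5), other factors and filters, and each library left out. The genes and lists were chosen with earlier results of these data known, so lists are described by counts and medians beside those of all genes. Whether the groups overlapped is given per gene, and the share of all genes whose groups did not overlap was not computed. Full values are given for RAN, for the 2 called genes per substructure or family with the largest log2 change at a mean FPKM of at least 1, and for up to 3 such genes of each other list. Replicate numbers are shared by the groups, and same-numbered libraries showed no shared deviation (correlations of deviations 0, 0.021 and 0.003). Low correlations cannot tell whether the libraries were made as pairs. Promoters are from RefSeq; KPNA4, KPNA5, KPNB1, NUP43 and XPO7 had no entry. Protein features were not analysed here. Another B-cell marker of the list chosen for the check of the cell type is not reported here.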

Additional observations from a re-analysis of the deposited data

How the results depend on the processing

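Of 48 called genes, 39 kept their call in all 18 alternative analyses, 9 lost it in some and 0 changed direction while called. With upper-quartile factors, which moved the median of all genes by 0.17 on the log2 scale, SEH1L, AAAS, KPNA1, IPO13, NUP42, RANBP2 and IPO7 lost their call. RAN, IPO8 and RANBP2 lost theirs in 2, 3 and 11 analyses. NUP133 was called higher with upper-quartile factors (0.20), as it was at an FPKM floor of 1 (0.13). Signs turned for genes that were not called: XPO1 was at 0.087 with upper-quartile factors and 0.012 at an FPKM floor of 1, and NUP133 ranged from -0.0080 (without DMSO replicate 1) to 0.048 with each library left out. The number of pore subunits called higher was 2, in place of 1, with upper-quartile factors, with no filter and at that floor. With no filter the added gene was NUP62CL, which had at most 16 counts in a library. The number of receptors called higher was 5, in place of 3, with upper-quartile factors, at that floor and with counts divided by 4. Of the other genes of nuclear transport, 27 were lower and 13 higher with upper-quartile factors, in place of 34 and 9 of 47. At that floor 28 of 45 were lower and 8 higher.

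The median log2 change of pore subunits was -0.38 with upper-quartile factors, -0.52 at that floor and with limma without a filter, -0.59 with counts divided by 4, -0.60 with limma and a pseudocount of 0.1, and -0.61 to -0.51 with each library left out. That of receptors was -0.12 with upper-quartile factors, -0.19 at that floor, -0.26 with counts divided by 4, -0.27 with RLE factors, DESeq2 and limma with a pseudocount of 1, -0.28 with no filter and with limma at pseudocounts of 0.5 or 0.1 or without a filter, -0.30 with inhibitor replicate 1 alone, and -0.32 to -0.27 with each library left out. With the replicate number as a block, 26 pore subunits were lower and 1 higher, 17 receptors lower and 3 higher, with medians of -0.56 and -0.29, and the block changed no call. IPO4 was called higher in 6 of the 18, and had a log2 change of 0.55 when summed with its overlapping gene. The cause of these shifts was not tested. The comparison of protein features was not run.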

Other observations

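Near copies of the genes described above did not always move with them. RGPD5 and RGPD6, copies of RANBP2, were at 0.0329 to 0.0576 FPKM in the DMSO libraries and at 0.422 to 0.507 FPKM with the inhibitor, and both were called higher (log2 change 3.53 and 3.39, edgeR adjusted p = 6.57e-07 and 1.96e-06). RGPD8 went from 0.0846, 0.0569 and 0.0979 FPKM to 0.442, 0.585 and 0.456 FPKM (log2 change of 2.62 with an SE of 0.264; adjusted p = 1.60e-05 in edgeR), while RGPD1, RGPD2, RGPD3 and RGPD4 were not called. IPO5P1, a pseudogene of IPO5 on another chromosome, rose from 2.46, 2.19 and 2.58 FPKM to 4.34, 5.76 and 4.84 FPKM (log2 change of 1.04 with an SE of 0.135; adjusted p = 9.52e-05 in edgeR), while IPO5 itself fell by 0.35 on the log2 scale. How reads were shared among these copies was not tested.

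In the envelope, the inner-membrane proteins LBR and TMPO, which bind chromatin and lamins, changed by -1.08 (SE 0.042) and -1.14 (SE 0.070), and SUN2, a partner of SYNE2, rose by 0.52 on the log2 scale (SE 0.050). CSE1L, the exporter that returns importin alpha to the cytoplasm, fell from 68.0, 72.8 and 66.8 FPKM to 46.3, 45.5 and 46.8 FPKM (log2 change of -0.59 with an SE of 0.046; adjusted p = 2.92e-06 in edgeR). These genes were chosen after their values were seen.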
